A study of Mus musculus with 6 samples.

Results

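The genes described here encode the proteins that the MLL-AF9 oncoprotein is built from and works with: the MLL histone methyltransferase (Kmt2a), its partners menin (Men1) and LEDGF (Psip1), the fusion partner AF9 (Mllt3) and its relative ENL (Mllt1), AF10 (Mllt10), the H3K79 methyltransferase DOT1L (Dot1l), and the AFF scaffolds of the super elongation complex, AF4 (Aff1) and AFF4 (Aff4). They were chosen by symbol, as 9 of the 55367 genes listed in an RNA-seq table of leukemia stem cells (LSCs) with and without Piezo1. All 9 had values, and all 9 were among the 16746 genes tested, which averaged 1 or more on the deposited log2 scale.

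The comparison rests on 6 RNA-seq libraries, 3 of WT and 3 of Piezo1cKO LSCs. The labels give the leukemic mice an age of 8 to 10 weeks. The donors were Piezo1 fl/fl mice on a C57BL/6J background, both groups having received pIpC, and the Piezo1cKO mice also carried Mx1-cre, which drives deletion in interferon-responsive cells rather than in a single blood cell type. Lineage-negative bone marrow cells of both groups were transduced with an MLL-AF9 retrovirus that also encodes YFP and were transplanted into irradiated recipients, so the WT group carries the oncogene too. The study defines LSCs as YFP+ Lin- Sca-1- c-Kit+ cells that are also CD34+ and high in CD16/32, and the labels give no gate for these libraries. Whether each library came from a separate recipient is not given in the sources used here, so p-values measure the spread between these libraries, which may be technical.

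In outline, MLL is brought to its target promoters by its amino-terminal part, which binds menin, and menin and MLL together bind LEDGF, a reader of methylated H3K36. Leukemic fusions keep that part and replace the rest with a partner such as AF9, whose own partners are AF4 family scaffolds and DOT1L. The scaffolds carry P-TEFb, the kinase that releases paused RNA polymerase II, while DOT1L, held on chromatin together with AF10, methylates H3K79 in transcribed genes. In MLL-rearranged leukemia this machinery is known for keeping HOXA genes and MEIS1 active.

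Recovered reads, obtained by undoing the regularized log of the deposited table, gave 14112124 to 15483618 reads on genes per library. Levels below are normalized reads, which are recovered reads divided by the library's size factor. A change on the deposited scale is pulled towards each gene's mean and is smaller than that of the reads, so both are given as log2 fold changes, Piezo1cKO minus WT. A gene was called at an adjusted p under 0.05 in limma (Benjamini-Hochberg over all genes fitted), and a DEG also needed an absolute log2 fold change over 1. The groups differed broadly, with 63% of the genes fitted called, and a similar number in each direction. Piezo1 itself had 101, 92.8 and 109 normalized reads in WT libraries and 36.6, 56.5 and 45.8 in Piezo1cKO libraries, which was 45.9% of the WT level (deposited change -0.29, adjusted p = 5.8e-06, limma). The value covers the whole gene and not the deleted exons alone.

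Among the cofactor genes, Kmt2a rose in Piezo1cKO LSCs, Psip1, Mllt10, Dot1l and Aff4 fell, and Men1, Mllt1, Aff1 and Mllt3 were not called. Thus 1 of 9 was higher (31.6% of all genes fitted were called higher) and 4 of 9 were lower (31.4% of all genes fitted). The called share of the members, 5 of 9, was therefore near the background of 63%. The members' median change was -0.07 on the deposited scale and -0.15 on the reads, beside a median of 0 over all genes. The median absolute change was 0.21 against 0.09 for all genes on the deposited scale, and 0.48 against 0.44 for all genes on the reads. All members but Mllt3 averaged at least 100 normalized reads, and for these 8 it was 0.48 on the reads, beside 0.25 for the 9080 genes with as many. Of these 8 genes 5 were called, beside 70.1% of the 9080. In 1 member every Piezo1cKO library lay above every WT library and in 5 every one lay below, where 33.5% and 33.1% of all genes fitted did so (66.6% together). On the reads 2 of 9 were called higher (31.6% of all genes there) and 4 of 9 lower (31.4%), 62.9% of all genes being called. None of the 9 was a DEG on the deposited scale, where 0.818% of genes were. In bulk RNA, fewer cells of a type and less RNA per cell cannot be told apart.

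**Figure D1:**
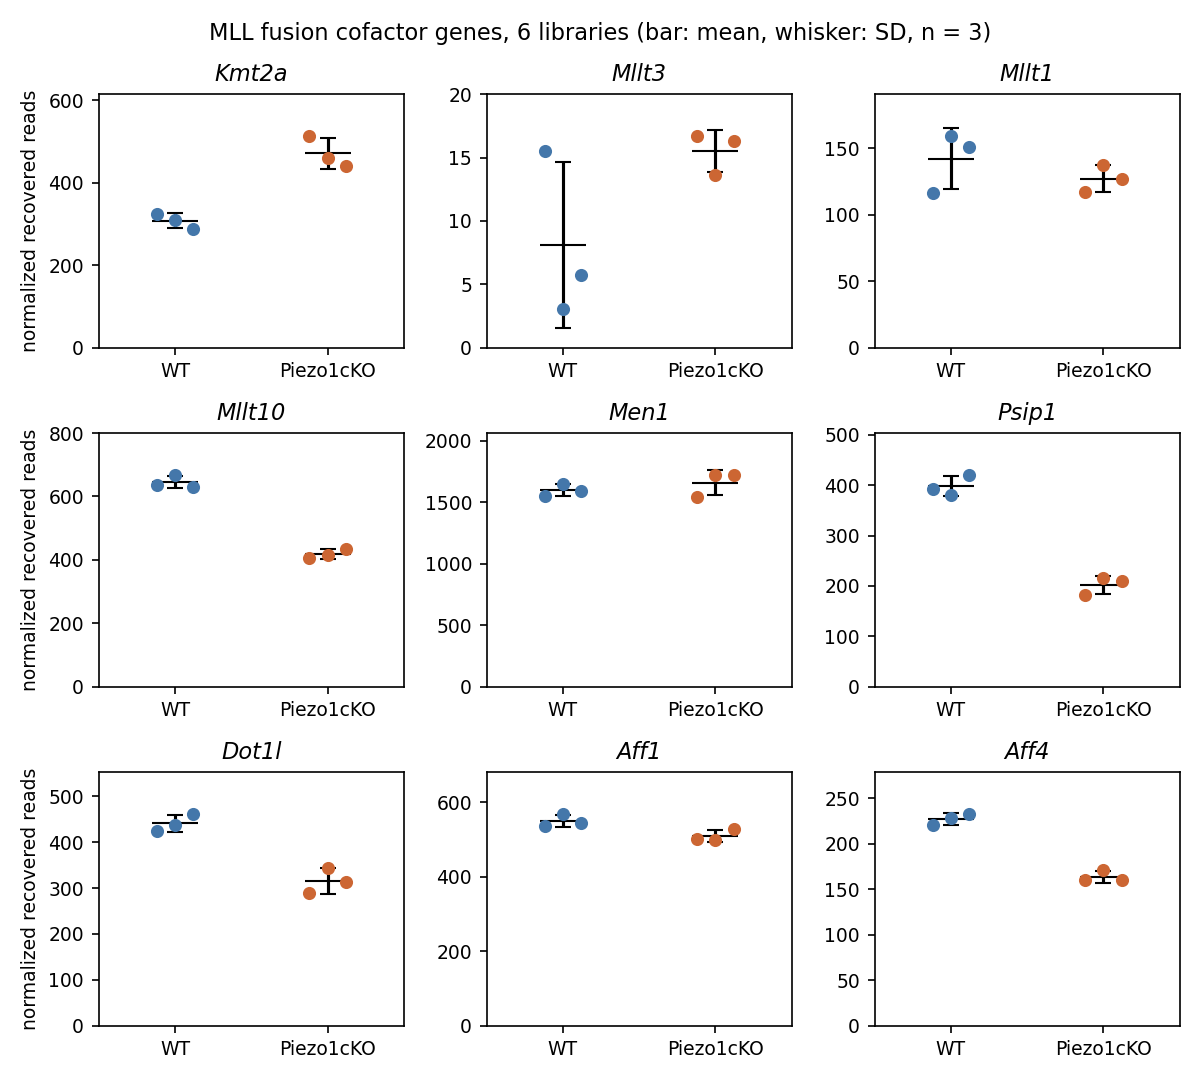
Normalized recovered reads (y axis, linear, from 0, a scale for each gene) of the 9 genes in the 3 WT and 3 Piezo1cKO libraries, each point a library, with the mean as a horizontal line and the SD as a whisker. Kmt2a is higher in every Piezo1cKO library, Psip1, Mllt10, Dot1l, Aff4 and Aff1 are lower in every one, and the groups overlap for Mllt3, Mllt1 and Men1.

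The MLL, menin and LEDGF trio did not move together. Kmt2a, on chromosome 9 from 44803355 to 44881296 on the minus strand (GRCm38, as are all positions here), encodes the amino- and carboxy-terminal subunits of MLL. It had 325, 310 and 289 normalized reads in WT libraries and 514, 459 and 442 in Piezo1cKO libraries. The lowest Piezo1cKO library was thus well above the highest WT library. Its mean rose from 308 ± 18.3 to 472 ± 37.8 (SD, n = 3 each), to 153% of WT. The change was 0.34 on the deposited scale (SE 0.04, adjusted p = 9.09e-07, limma) and 0.61 on the reads (SE 0.08, adjusted p = 6.02e-06, limma-voom). Whether transcripts of the MLL-AF9 retrovirus were counted on Kmt2a or Mllt3 is not given in the sources used here, and the table has a single value per gene. An antisense transcript, AC061963.1, covers 2.27% of the Kmt2a exon bases.

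Psip1 (chromosome 4, 83455680 to 83486459, minus strand) showed the largest change of the 9 genes on the deposited scale. It encodes LEDGF in a long form with the domain that binds menin and MLL and a short form without it, which gene-level values do not separate. WT libraries had 393, 380 and 420 normalized reads and Piezo1cKO libraries had 182, 215 and 210. The groups lay far apart, and the mean fell from 398 ± 20.4 to 202 ± 17.99 (SD, n = 3 each), which was 50.8% of WT. The deposited change was -0.50 (SE 0.04, adjusted p = 4.87e-09, limma), and that of the reads was -0.98 (95% interval -1.16 to -0.79, adjusted p = 1.25e-07, limma-voom). Of the 9080 genes with at least 100 normalized reads on average, 92.9% changed less than Psip1 on the reads. Snapc3, on the opposite strand, shares 9.5% of the Psip1 exon bases, and the library type does not separate strands. Snapc3 had 1006 normalized reads in WT and 846 in Piezo1cKO LSCs on average, a deposited change of -0.16 (adjusted p = 0.00031, limma). A pseudogene copy of Psip1, Gm15773, with 95.8% identity over 1447 bases, was given at most 1 read in any library.

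Men1 (chromosome 19, 6334979 to 6340891, plus strand), encoding the menin scaffold that joins MLL to LEDGF, was the most abundant of the 9 genes per length and was not called. It had 1553, 1650.0 and 1590.3 normalized reads in WT libraries and 1539, 1718 and 1723 in Piezo1cKO libraries. The groups overlapped, since the first Piezo1cKO library was the lowest of all 6. The deposited change was 0.04 (95% interval -0.03 to 0.11, adjusted p = 0.354, limma), so a change of the size seen for Kmt2a lies outside its interval.

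AF9 and ENL are paralogs whose YEATS domains read acylated histones, and both bind AFF scaffolds and DOT1L. Mllt3 (chromosome 4, 87769925 to 88033364, minus strand) was nearly absent, with 71 recovered reads over all 6 libraries. There were 16, 3 and 6 reads in WT libraries and 16, 14 and 16 in Piezo1cKO libraries. The first WT library lay among the Piezo1cKO libraries, and the other 2 WT libraries lay below all of them. The deposited change was 0.06 and was not called (SE 0.02, adjusted p = 0.0597, limma), whereas the reads gave 1.17 with a wide interval of 0.22 to 2.12 (adjusted p = 0.0327, limma-voom). On the reads Mllt3 was therefore the only DEG of the 9, beside 24.9% DEGs among all genes there. Without the first WT library the deposited change was 0.08 (adjusted p = 0.00803, limma).

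Mllt1 (chromosome 17, 56892611 to 56935415, minus strand) had 116, 159 and 151 normalized reads in WT libraries and 117, 137 and 127 in Piezo1cKO libraries. The first WT library was the lowest of all 6, so the groups overlapped. The deposited change of -0.06 was not called (95% interval -0.15 to 0.04, adjusted p = 0.275, limma), but without that library it was -0.11 (adjusted p = 0.0435, limma). ENL transcripts outnumbered those of AF9 in every library, also per kilobase of exon.

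DOT1L and AF10 form a complex in which AF10 raises H3K79 methylation by DOT1L, and both genes fell. Mllt10 (chromosome 2, 18055237 to 18212388, plus strand) had 637, 668 and 630 normalized reads in WT libraries and 405, 416 and 434 in Piezo1cKO libraries. Neither group spread over more than a small part of the gap between them. The mean fell from 645 ± 20.1 to 419 ± 14.7 (SD, n = 3 each), to 64.9% of WT, with a deposited change of -0.37 (SE 0.03, adjusted p = 3.77e-08, limma) and -0.62 on the reads. Dnajc1, on the opposite strand, shares 12.7% of the Mllt10 exon bases. It had 542 normalized reads in WT and 473 in Piezo1cKO LSCs on average (deposited change -0.12, adjusted p = 0.012, limma), a smaller change than that of Mllt10.

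Dot1l (chromosome 10, 80755206 to 80795461, plus strand) had 424, 438 and 462 normalized reads in WT libraries and 289, 344 and 312 in Piezo1cKO libraries. Every Piezo1cKO library was below every WT library. The level was 71.4% of WT, with a deposited change of -0.27 (SE 0.04, adjusted p = 1.33e-05, limma) and -0.48 on the reads.

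The AFF scaffolds hold ENL or AF9, ELL proteins and P-TEFb together in the super elongation complex. Aff4 (chromosome 11, 53350833 to 53421830, plus strand) had 220.3, 228 and 233 normalized reads in WT libraries and 159.8, 172 and 159.8 in Piezo1cKO libraries. The libraries of each group lay close together and the groups did not overlap. The mean fell from 227 ± 6.34 to 164 ± 6.79 (SD, n = 3 each), to 72.1% of WT, with a deposited change of -0.21 (SE 0.04, adjusted p = 9.12e-05, limma) and -0.47 on the reads. Aff1 (chromosome 5, 103692374 to 103855322, plus strand) had 537, 569 and 545 normalized reads in WT libraries and 500.4, 499 and 529 in Piezo1cKO libraries. Its groups did not overlap either, yet the gap was small. The level was 92.6% of WT and the deposited change of -0.07 was not called (95% interval -0.14 to 0.01, adjusted p = 0.105, limma).

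**Figure D2:**
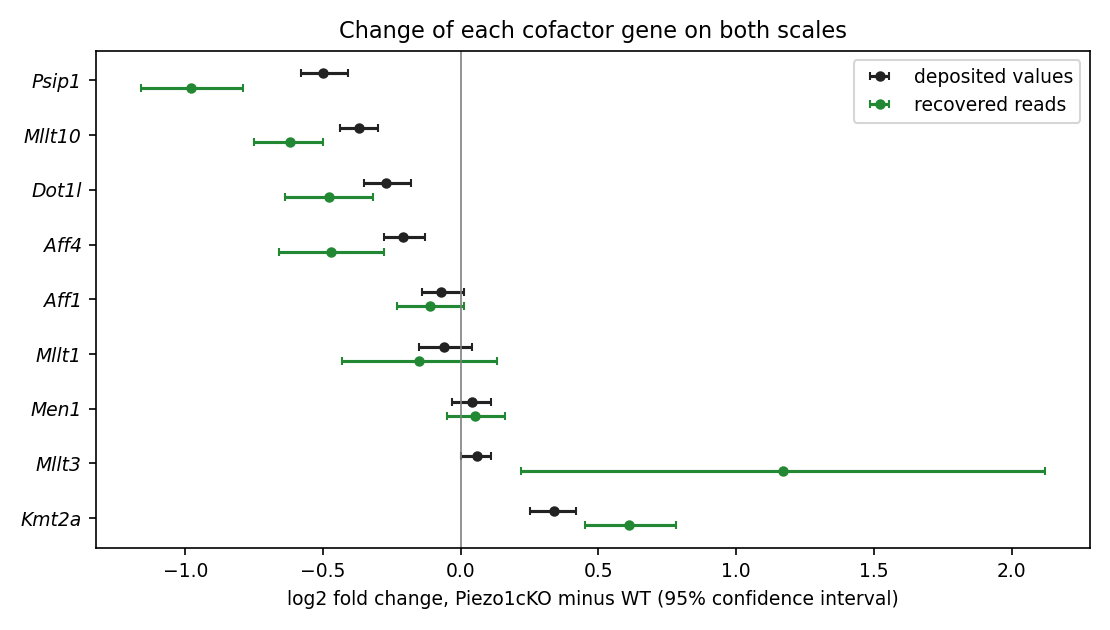
Log2 fold change, Piezo1cKO minus WT (x axis), of each of the 9 genes on the deposited scale (black) and on the recovered reads (green), with 95% confidence intervals from limma and limma-voom. Psip1 is at -0.50 and -0.98 and Kmt2a at 0.34 and 0.61, and the intervals of Aff1, Mllt1 and Men1 hold 0 on both scales.

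Levels can be compared between the genes as normalized reads per kilobase of exon. In WT LSCs the means were 417 for Men1, 109 for Mllt10, 78.3 for Psip1, 58.2 for Aff1, 50.7 for Dot1l, 36.3 for Mllt1, 18.5 for Kmt2a, 16.9 for Aff4 and 0.675 for Mllt3. No neighbours in this order overlapped over the 3 WT libraries, although Kmt2a and Aff4 all but met, the lowest Kmt2a and the highest Aff4 value both being 17.3. In Piezo1cKO LSCs the means were 433 for Men1, 70.9 for Mllt10, 53.9 for Aff1, 39.8 for Psip1, 36.2 for Dot1l, 32.5 for Mllt1, 28.3 for Kmt2a, 12.2 for Aff4 and 1.30 for Mllt3. Psip1 and Aff1 thus changed places. The Piezo1cKO ranges of Psip1 (35.8 to 42.4) and Dot1l (33.2 to 39.5) overlapped, as did those of Dot1l and Mllt1 (29.9 to 35.1) and of Mllt1 and Kmt2a (26.5 to 30.8). The levels of Psip1, Dot1l, Mllt1 and Kmt2a thus lay closer together in Piezo1cKO than in WT LSCs.

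Ratios between genes of 1 library need no scaling between libraries. The ratio of Kmt2a to Psip1 reads was 0.827, 0.814 and 0.686 in WT libraries and 2.83, 2.13 and 2.11 in Piezo1cKO libraries. Psip1 reads thus outnumbered Kmt2a reads in every WT library, and the reverse held in every Piezo1cKO library. The geometric mean of the ratio rose 3.02-fold. These reads are not divided by exon length. Per kilobase of exon, Psip1 stayed above Kmt2a in every Piezo1cKO library (35.8, 42.4 and 41.2 against 30.8, 27.5 and 26.5). The ratio of Kmt2a to Men1 was 0.209, 0.188 and 0.181 in WT libraries and 0.334, 0.267 and 0.256 in Piezo1cKO libraries. The ratio of Aff4 to Aff1 was 0.410, 0.401 and 0.428 in WT libraries and 0.319, 0.344 and 0.302 in Piezo1cKO libraries. In these 3 ratios the groups did not overlap. Each had the smallest exact permutation p that 3 against 3 libraries allow (two-sided p = 0.1, 0.167 adjusted over the 5 ratios), which cannot pass 0.05. The ratios restate the member changes given above. Groups did not overlap for 66.6% of single genes fitted on the deposited scale, and the share over other gene pairs was not computed. The ratio of Mllt10 to Dot1l was 1.46 ± 0.0872 in WT and 1.33 ± 0.108 in Piezo1cKO LSCs (SD, n = 3 each, exact permutation p = 0.3), so the partners of this complex fell without a separation in their ratio. The groups also overlapped for Mllt3 to Mllt1 (exact permutation p = 0.3).

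**Figure D3:**
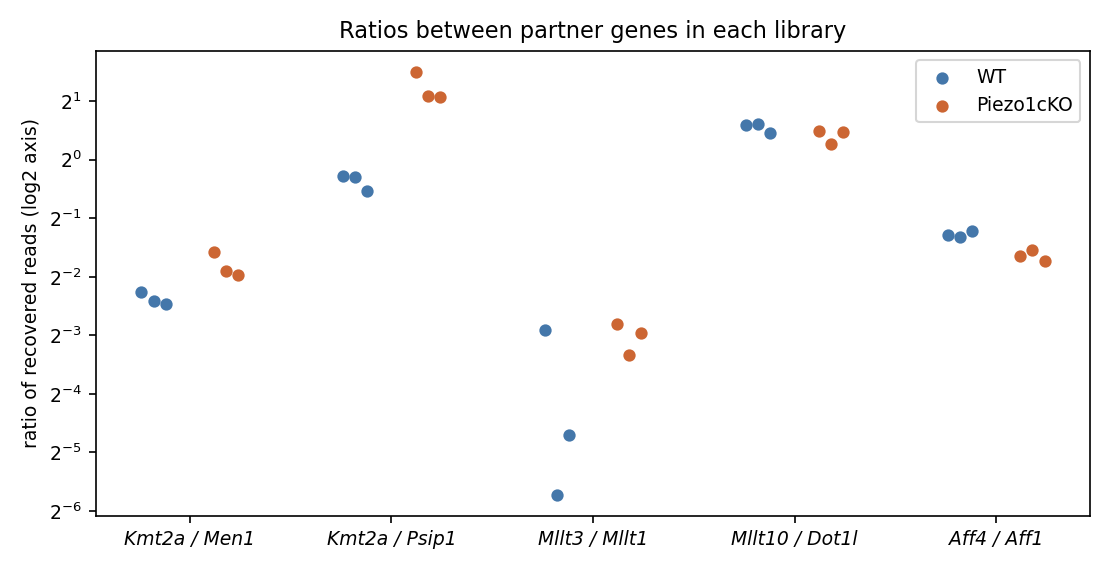
Ratios of recovered reads between partner genes (y axis, log2 scale) in each of the 3 WT (blue) and 3 Piezo1cKO (orange) libraries, each point a library. The Kmt2a to Psip1 ratio is 0.686 to 0.827 in WT and 2.11 to 2.83 in Piezo1cKO libraries, and the groups overlap for Mllt3 to Mllt1 and Mllt10 to Dot1l.

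Promoter windows of 250 bases before a RefSeq start (GRCm38.p6) were found for 8 of the 9 genes, all but Psip1. The study's later experiments concern HIF1A, so the bases ACGTG and GCGTG, the core that HIF1A binds, were searched on both strands. The study's own motif is GCGTR, with sites GCGTG or GCGTA, and GCGTA was not searched here. Shown are the bases before the outermost start of Kmt2a, which rose, and of Dot1l and Aff4, which fell, 5′ to 3′ on the gene's strand with the cores in capitals. Kmt2a is on the minus strand and the others are on the plus strand.
Kmt2a chr9:44881353-44881539: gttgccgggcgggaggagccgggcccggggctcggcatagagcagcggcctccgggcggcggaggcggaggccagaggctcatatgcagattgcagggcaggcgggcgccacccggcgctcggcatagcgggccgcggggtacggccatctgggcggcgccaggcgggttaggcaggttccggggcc
Dot1l chr10:80754953-80755100: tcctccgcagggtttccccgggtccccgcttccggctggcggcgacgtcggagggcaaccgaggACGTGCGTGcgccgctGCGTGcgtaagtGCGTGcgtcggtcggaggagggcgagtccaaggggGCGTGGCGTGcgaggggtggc
Aff4 chr11:53350517-53350639: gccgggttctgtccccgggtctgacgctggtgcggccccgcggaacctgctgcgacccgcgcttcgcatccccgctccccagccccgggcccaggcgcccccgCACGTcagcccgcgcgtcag
The Kmt2a stretch of 187 bases held no core, the Dot1l stretch of 148 bases held 6, some overlapping, and the Aff4 stretch of 123 bases held 1. Some genes have more than 1 window, so the share of all windows is given beside the count of member windows. Over whole windows, ACGTG was found for Mllt10, Dot1l and Aff4, in 3 of the 14 member windows and in 16.6% of all 32851 windows. GCGTG was found for Mllt3, Mllt1, Mllt10, Men1 and Dot1l, in 7 of the 14 member windows and in 28.2% of all windows. Other motifs were searched too. CACGTG (E-box, which contains ACGTG) was found for Aff4 alone, in 1 of the 14 windows and in 6.02% of all windows. CCGGAAG (ETS) was found for Mllt1 and Dot1l, in 2 of the 14 and in 6.91% of all. GGGCGG (GC box) was found for 7 of the 8 genes, in 10 of the 14 windows and in 32.7% of all. CCAAT was found for 4 of the 8 genes, in 7 of the 14 windows and in 33.8% of all. TGACGTCA (CRE) and TGATGNAA (ATF4) were found in none of the 14 member windows and in 1.55% and 3.45% of all windows. The windows of the members were richer in G and C (median 67.8% against 52.4%), and both cores hold CG, so these counts are a description and not binding sites.

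Other elongation genes moved both ways. The counts of this and the following lists stand beside 31.6% of all genes fitted called higher and 31.4% called lower (63% together). Of 10 genes of the super elongation complex and P-TEFb, 8 were fitted, of which 1 was called higher and 4 lower, with a median deposited change of -0.09. Ell2, an elongation factor of the complex, fell from 188 ± 4.72 to 56.1 ± 8.18 normalized reads (SD, n = 3 each, deposited change -0.59, adjusted p = 2.9e-10, limma), a larger change than that of any of the 9 cofactor genes on that scale. On the deposited scale its relative Ell fell by 0.24, the ELL partner Eaf1 by 0.38 and the Aff1 paralog Aff2 by 0.19. Normalized reads of Ell, Eaf1 and Aff2 were 75.3%, 66.2% and 51.4% of WT. The cyclin Ccnt1 rose (0.10, adjusted p = 0.00761, limma), while the P-TEFb kinase Cdk9 (0.01), Ccnt2 (0.06) and Aff3 (0.06) were not called, and Ell3 and Eaf2 were too low to be fitted. In the 7SK particle that holds P-TEFb inactive, 2 of 4 genes were called (50%), both higher, with a median of 0.14. Hexim1, the P-TEFb inhibitor, rose from 32.7 ± 2.50 to 119.9 ± 10.6 normalized reads and Mepce, the 7SK capping enzyme, rose from 70.7 ± 10.6 to 148 ± 5.60 (deposited changes 0.47 and 0.35, adjusted p = 3.85e-09 and 4.73e-07, limma). Hexim2 (-0.10) and Larp7 (-0.07) were not called.

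Of 8 core subunits and processing factors of MLL complexes, 1 was called higher and 4 lower, with a median of -0.13. The called share was 62.5%, near the 63% of all genes fitted. Rbbp5 fell from 408 ± 1.83 to 260.0 ± 14.2 normalized reads (deposited change -0.34, adjusted p = 1.79e-07, limma), Tasp1, the protease that cleaves MLL, fell by 0.32 on the log2 scale, Hcfc2 fell by 0.25 and Wdr5, which the complex needs for its activity, fell by 0.24. Hcfc1 rose by 0.10, and Ash2l (0.03), Dpy30 (0.01) and Kat8 (-0.03) were not called. Among other KMT2 and SETD1 enzymes and their subunits, 9 of 10 were fitted, 4 of them called higher and 3 lower (77.8% called), with a median of 0.10. Kmt2d, an enhancer H3K4 methyltransferase, rose to 11979 from 8552 normalized reads (0.36, adjusted p = 4.28e-11, limma), whereas its paralog Kmt2c fell to 285 from 464 (-0.38). The shared subunits Ncoa6 and Paxip1 fell (-0.46 and -0.33), to 21.0% and 71.3% of WT in normalized reads. Kmt2e, Setd1b and Kdm6a rose by 0.10, 0.10 and 0.14, Kmt2b (0.04) and Setd1a (0.11) were not called, and Pagr1a was too low.

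Around LEDGF, 8 of 9 relatives and proteins that bind its integrase-binding domain were fitted, 2 called higher and 3 lower, with a median of -0.05. The called share was 62.5%, beside 63% of all genes fitted. The binding proteins Pogz, Iws1 and Dbf4 fell (-0.33, -0.28 and -0.27) and Cdca7l and Med1 rose (0.08 and 0.11). The paralogs Hdgf (-0.04), Hdgfl2 (-0.06), also a menin and MLL partner, and Hdgfl3 (0.02) were not called. Of 5 methyltransferases that place or can place the H3K36 mark read by LEDGF, 3 fell (Nsd2 -0.28, Setd2 -0.19, Ash1l -0.16), Nsd3 rose (0.10) and Nsd1 (0.04) was not called. Their median was -0.16 and 80% of them were called. Of 6 PAF1 complex genes, whose proteins recruit MLL to genes, 2 were called higher and 3 lower (83.3% called), with a median of -0.08. Cdc73 fell from 415 ± 26.9 to 227 ± 18.1 normalized reads (-0.45), Rtf1 and Leo1 fell (-0.24 and -0.09), Ctr9 and Paf1 rose (0.28 and 0.12) and Wdr61 (-0.07) was not called.

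Of 12 genes of the HBO1 and MOZ acetyltransferase complexes, 3 were called higher and 4 lower, with a median of -0.01. The called share was 58.3%, beside 63% of all genes fitted. On the deposited scale the largest called changes were those of Jade1 (-0.41), Jade3 (-0.28), Brd1 (0.17), Ing4 (0.14), the HBO1 enzyme Kat7 (-0.13) and Jade2 (0.11). Normalized reads of Jade1 and Jade3 were 58.9% and 44.3% of WT. Of 9 chromatin readers and modifiers that MLL fusions use, 6 were called higher and 1 lower (77.8% called), with a median of 0.14. Among all genes fitted 31.6% were called higher and 31.4% lower. Jmjd1c, Ring1, Cbx8, Rnf2, Brd2 and Prmt1 rose by 0.38, 0.31, 0.18, 0.16, 0.14 and 0.05, and Brd3 fell by 0.10 on the log2 scale. Kdm4c, an H3K9 demethylase, had a change of 0.03 and was not called.

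Of 19 genes that are partners in other MLL fusions, 18 were fitted, of which 9 were called higher and 6 lower, with a median of 0.11. The called share was 83.3%, beside 63% of all genes fitted. Gas7 rose from 4099 ± 53.5 to 11934 ± 373 normalized reads (1.13, adjusted p = 6.46e-18, limma) and was the only DEG of this list on the deposited scale. Septin6 (0.51), Foxo3 (0.37), Maml2 (0.37) and the Mllt10 paralog Mllt6 (0.32) also rose, and Cbl fell (-0.24). Mllt6 went from 3.26 ± 0.538 to 47.9 ± 6.31 normalized reads, opposite in direction to Mllt10.

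Among 22 genes listed here as targets of MLL or its fusions, 11 were called higher and 9 lower. The called share was 90.9%, beside 63% of all genes fitted. The median deposited change was 0.05, so the list did not move one way. Mecom, encoding the EVI1 transcription factor, had 633 ± 55.9 normalized reads in WT libraries and at most 1 read in each Piezo1cKO library, at least 208-fold lower against a floor of 3 reads per library. The cell cycle inhibitor Cdkn2c fell from 2310.0 ± 136 to 479.8 ± 29.97 normalized reads (-1.52, adjusted p = 8.94e-17, limma), and these were the 2 DEGs of the list. The receptor gene Flt3 rose from 648 ± 23.9 to 1606 ± 43.2, and Cdkn1b (0.58) and the MEIS1 and HOXA cofactor Pbx3 (0.53) rose as well.

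**Figure D4:**
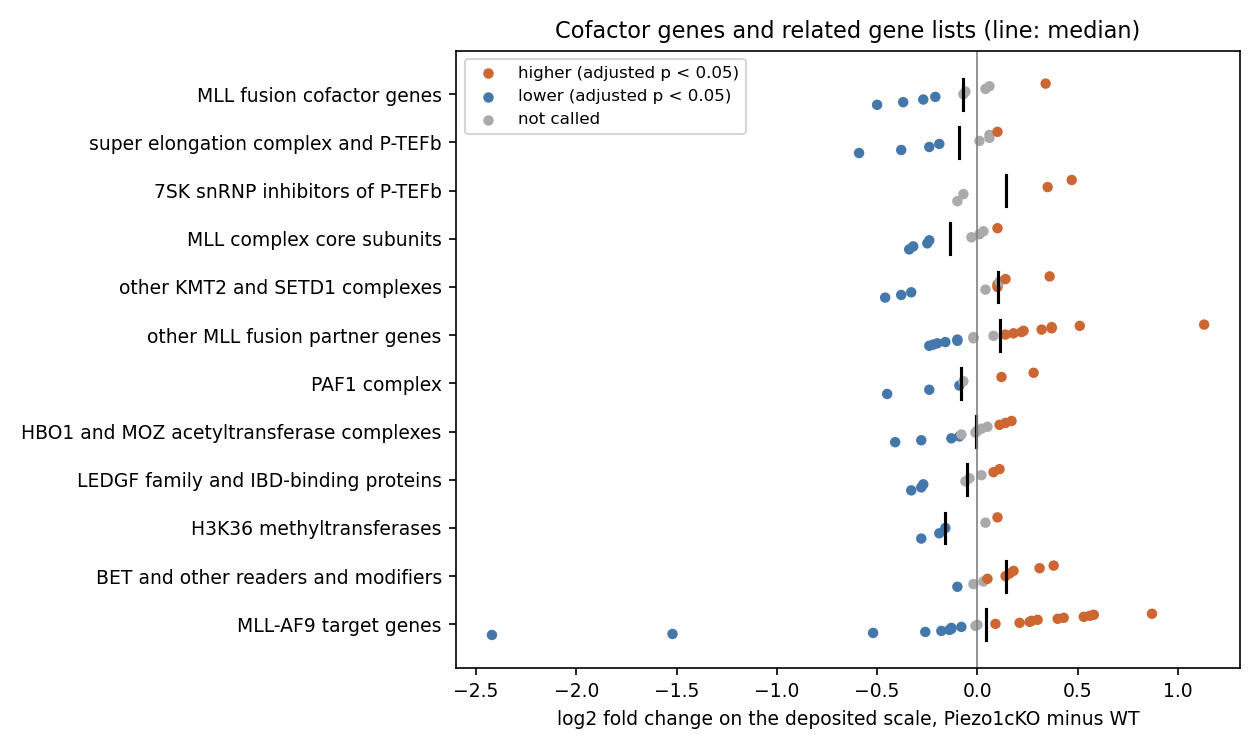
Log2 fold change on the deposited scale, Piezo1cKO minus WT (x axis), of the 9 cofactor genes (top line) and of the fitted genes of 11 related lists, each point a gene coloured by its call and each black bar the list's median. Medians run from -0.16 for the H3K36 methyltransferases to 0.14 for the 7SK inhibitors and the readers and modifiers, and every list but the 7SK inhibitors holds genes called in both directions.

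The genes most like Psip1 over the 6 libraries, among 3397 genes with a mean within 1 log2 unit, were C1rl, Zfp180 and Zbtb14 (Pearson r 0.999, 0.997 and 0.996 of deposited values). All 6 points share the split between groups, and 563 of these genes (16.6%) had r over 0.95, so this is a description.

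The LSC markers Kit, Cd34, Fcgr3, Hoxa9, Meis1 and Ptprc were all fitted, 3 of 6 called higher and 1 lower. Among all genes fitted 31.6% were called higher and 31.4% lower, beside which all marker counts here stand. They summed to 18271 to 18637 normalized reads in WT and 21516 to 21968 in Piezo1cKO libraries. On average Cd34 rose from 3721 to 5796 and Kit from 2522 to 3425, whereas Meis1 fell from 896 to 777. Hoxa9 (3422 and 3436) and Fcgr3 (5405 and 5323) hardly differed. Summed markers of other cells differed between the groups as well, except those of T cells, whose sums overlapped. The summed reads of 6 mast cell and basophil markers were 1999 to 2107 in WT and 7680.0 to 7906 in Piezo1cKO libraries (5 of 6 called higher), led by Cpa3. For 7 neutrophil markers they were 2509 to 2532 and 909 to 956 (5 of 7 fitted lower, 1 higher). Mmp8 rose from 42.5 to 633 on average, against the other called markers, and made up most of the Piezo1cKO sum. For 6 dendritic cell markers they were 829.6 to 879 and 1785 to 1816 (5 of 6 higher, 1 lower), most of them from Flt3. The sums were 3991 to 4173 and 2496 to 2537 for NK cells (2 of 3 fitted higher, 1 lower, with Nkg7 making up nearly all reads), 5555 to 5828 and 6417 to 6621 for macrophages (3 of 5 higher, C1qa at 0) and 1537 to 1597 and 2415 to 2638 for B cells (3 of 3 higher, with Cd79b making up nearly all reads). Erythroid markers summed to 128 to 149 and 41.7 to 50.1 (2 of 5 lower) and T cell markers to 59.6 to 71.7 and 61.4 to 108 (1 of 3 higher, 1 lower, Cd8a at 0). The part of these differences in the changes of the cofactor genes was not tested.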

How the data were processed

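RNA-seq libraries of 3 WT and 3 Piezo1cKO LSC samples were prepared with a Smart-seq2 based protocol and Tn5, without strand. The authors trimmed reads with fastp (0.20.1), mapped them to GRCm38 with hisat2 (2.2.1), counted them with featureCounts (2.0.1) and normalized with DESeq2 (1.28.1). The deposited table holds log2 values from -1.97 to 18.06 with the form of a regularized log (the transform is not named), and 28965 genes are listed at 0 in all libraries.

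Genes with a mean of at least 1 (16746) were fitted with limma (3.58.1, R 4.3.3) using lmFit and trended eBayes, two-sided, with no covariate. The regularized log was undone by fitting size factors, shrinkage and a dispersion trend. In the 18332 genes averaging 1 read or more, 92.8% of values came within 0.1 of a whole number, against 22.2% with shrinkage 10% off. The reads of 17352 genes with at least 10 in total were fitted with limma-voom, and intervals on the reads rest on this recovery. Both steps were tested on simulated data. Ratios of recovered reads were compared on the log2 scale by a two-sided exact permutation test. Positions and exon lengths came from GENCODE M21, near-identical copies from BLAST (2.17.0, at least 95% identity over 100 bases) and promoters from RefSeq. Python 3.11.15 with numpy 2.4.6, scipy 1.17.1, pandas 2.3.3 and matplotlib 3.10.9 was used.

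The members and gene lists were chosen with earlier results of these data known. Named are all members, Piezo1, all genes of lists of up to 10 or else the 6 largest called changes, the 3 genes most like the most changed member, and markers where their list moved. Some list genes are not reported here by name but stay in the counts and medians. The overlapping genes Snapc3, Dnajc1 and AC061963.1 and the near-identical copy Gm15773 were added from the annotation, outside this rule and after the members' values were seen. Alternatives were other filters on low values, scalings and variance models, recovered reads, leaving out single libraries, a replicate block and no fold change threshold.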

Additional observations from a re-analysis of the deposited data

How the results depend on the processing

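Kmt2a, Psip1, Mllt10, Dot1l and Aff4 were called in the same direction under all 13 alternatives, with log2 fold changes of 0.30 to 0.63, -0.98 to -0.46, -0.62 to -0.35, -0.48 to -0.24 and -0.47 to -0.18, and no member changed direction. Of 116 member results under alternatives, 108 kept their side of the threshold and 8 passed it where the reported value had not. Of those, 5 of 12 were for Mllt3 (adjusted p 0.00803 to 0.254 over its alternatives, 71 reads), and 1 each for Mllt1 (without WT replicate 1), Men1 (without Piezo1cKO replicate 1, change 0.07, adjusted p = 0.0474, limma) and Aff1 (no trend, change -0.07, adjusted p = 0.0446, limma). Members called higher were 2 in place of 1 with libraries shifted to the same median, with a replicate block and on both fits of recovered reads, and 1 to 2 with a library left out. DEGs among members were 1 in place of 0 on both fits of recovered reads and 5 with no fold threshold. DEGs among all genes were 137, and 4322 on recovered reads and 4333 with library totals, since the reads are not shrunken. On the deposited scale with no fold threshold they were 10556. The 7SK list had 4 genes called in place of 2 with a replicate block, and the LEDGF list had 3 to 6 in place of 5 with a library left out (3 without WT replicate 3). Uncalled values near 0 changed sign in some fits, with a library left out over ranges of -0.01 to 0.03 for Cdk9 and Dpy30, 0 to 0.10 for Kmt2b and -0.02 to 0.04 for Hdgfl3. They were -0.01 for Cdk9 (without Piezo1cKO replicate 1), -0.01 for Dpy30 (without WT replicate 2), -0.01 and -0.02 for Hdgfl3 (without WT replicate 1 and without Piezo1cKO replicate 3) and 0 for Kmt2b (without Piezo1cKO replicate 3). The cause of these shifts was not tested. Libraries of the 2 groups share replicate numbers, but same-numbered libraries deviated together with correlations of 0.223, 0.183 and 0.0808, so the numbers were not taken as pairs, although each library correlated best with its own number. The replicate block changed no other member's call than that of Mllt3. Depth limits Mllt3 most.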
